A study of Mus musculus with 4 samples.

Results

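The 10 genes described here carry the erythropoietin signal in red cell precursors or restrain it. They were taken by symbol from the deposited count table, as genes of erythropoietin signalling and its Stat5-induced inhibitors: the receptor gene Epor, the kinase gene Jak2, the transcription factor genes Stat5a and Stat5b, the inhibitor genes Cish, Socs1, Socs2, Socs3 and Sh2b3, and the kinase gene Pim1. All 10 were found among the 35927 gene rows with counts. All 10 also passed the filter on low counts, and each lay above its limit of 0.417 CPM in every library.

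Erythropoietin (Epo) is the cytokine that keeps erythroid progenitors alive and drives their growth. It binds a receptor on the cell surface that has no kinase of its own and relies on the bound Janus kinase Jak2. Jak2 phosphorylates the receptor tail and the Stat5 proteins, which then enter the nucleus and switch on target genes. Several of these targets code for SH2 domain proteins that bind the receptor or Jak2 and close the loop. Embryos without the receptor or Jak2 fail to make definitive red cells in the fetal liver.

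mRNA was sequenced from mouse fetal liver cells of stage E13.5, in mid-gestation, on a C57BL/6 background, to find genes that depend on Rcor1, which encodes the CoREST scaffold of a histone demethylase and deacetylase complex. The cells were sorted by surface markers as CD71+ and TER119-, erythroid progenitors that carry the transferrin receptor and not the later erythroid antigen. The control group joined Rcor1+/+ and Rcor1+/- embryos in a proportion not given in the sources used here, and the mutant group was Rcor1-/-. Each group had 2 libraries, described as biological replicates, and each library pooled RNA of several fetal livers, so the spread between libraries is a spread between pools. A level below is in CPM, a count scaled to its library's total with a TMM correction, written with its SD over n = 2 libraries. A change is the mutant over control ratio on the log2 scale with its SE, and its p was adjusted by the Benjamini-Hochberg method in edgeR's quasi-likelihood test over 13140 genes, and a gene is said to rise or fall only where that adjusted p was at most 0.05.

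The libraries held 15053229 to 26892375 counts. Rcor1 itself had 160 and 175 CPM in the controls and 77.9 and 78.9 CPM in the mutants, which is a log2 fold change of -1.09 ± 0.06 (adjusted p = 4.6e-11), and gene counts do not show which exons the remaining reads cover. Cells were checked against erythroid markers: all 10 listed genes were present in every library, and all 10 were lower in the mutants (median log2 fold change -0.53). Their summed level ran from 6835 to 7048 CPM in controls and from 4514 to 4643 CPM in mutants. Granulocyte and monocyte markers, 9 of 11 tested higher and 1 lower, summed to 59.4 to 63.8 CPM in controls and 163 to 164 CPM in mutants. Megakaryocyte markers, 8 of 10 higher and 1 lower, summed to 113 to 118 CPM and 238 to 244 CPM. Csf3r, Cd33 and Gp6, among those higher in these lists, lay below the filter limit in both controls. They were tested only through the mutant libraries and so had to differ. Hepatoblast markers, 6 of 9 tested higher and none lower, summed to 916 to 929 CPM and 1258 to 1271 CPM. Macrophage markers stayed low, at 14.5 to 15.4 CPM in controls and 17.5 to 18.2 CPM in mutants, with Cd163 at 0 in every library. The 9 mast cell and basophil markers summed to at most 0.642 CPM in controls and 3.69 CPM in mutants, with Mcpt4 and Tpsab1 at 0, and the 9 lymphoid markers to at most 0.733 and 1.97 CPM. In bulk libraries fewer cells of a type and less RNA per cell cannot be told apart.

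In the Rcor1 mutant progenitors the receptor and both Stat5 genes were lower, while Jak2, Pim1 and all 4 genes of the Cish and Socs family in the group were higher. Of the 10 members, 6 rose, 3 fell and 1, Sh2b3, did not pass. Over all tested genes 28.3% rose, 29.2% fell and 57.5% passed in either direction, so change in itself was common in this comparison. These were 3723 and 3835 genes, against 5112 and 2553 with library totals alone. Under that scaling the same counts of members, 6 and 3, passed. With DESeq2, and in a fit without the count filter, 5 members rose and 3 fell, as Socs3 did not pass. The groups did not overlap for 9 of the 10 members, against 77.9% of all tested genes. Rises of at least 2-fold were seen in 4 members, Socs1, Socs2, Pim1 and Cish, and in 11.7% of tested genes. No member fell as much, and 1.8% of tested genes did. The median log2 fold change of the members was 0.47, and that of all tested genes 0.01. The members were chosen with earlier results of these data known, so these shares and medians describe the group and do not test it.

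**Figure D1:**
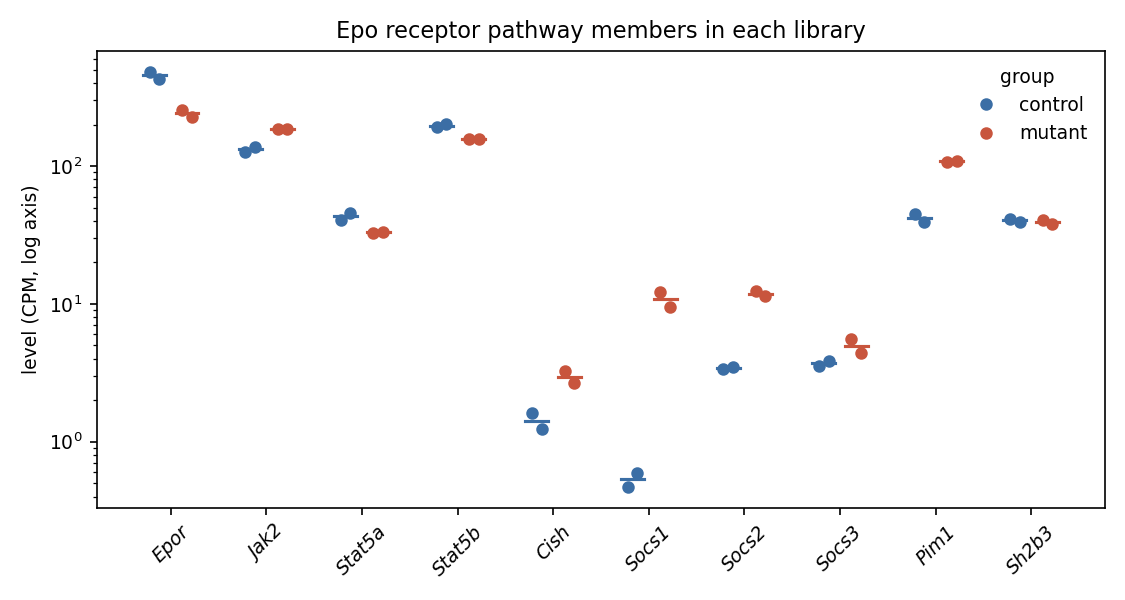
Level of each member in every library, in CPM on a log axis. Points are single libraries, blue for control and red for mutant, and each short line is the mean of a group's 2 libraries. Control and mutant points are apart for 9 genes and overlap for Sh2b3, and Socs1 shows the widest gap, from about 0.5 CPM to about 10.8 CPM.

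The receptor gene was lower in the mutants and changed the most of the 3 members that fell. Epor (ENSMUSG00000006235) had 485 and 431 CPM in the control libraries and 257 and 226 CPM in the mutant libraries. The highest mutant value lay well below the lowest control value. The change from 458 ± 38.1 to 241 ± 22.1 CPM was -0.92 ± 0.08 (adjusted p = 1.42e-05), a 1.89-fold fall. Only 2.33% of tested genes had a lower fold change. Of the 10 erythroid markers, all lower in the mutants, 2 fell further than Epor, namely Slc4a1 (-0.98), the anion exchanger of the red cell membrane, and the membrane skeleton gene Epb4.2 (-1.05). The part of the lower erythroid markers in the fall of Epor was not tested.

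Among 6 transcription factor genes that act on or with the Epor gene, 4 fell and 2 rose (median -0.40). Klf1, an erythroid activator that binds CACC elements, changed by -0.73, Zfpm1, the Fog1 cofactor of GATA proteins, by -0.55, Gata1, the main GATA factor of erythroid cells, by -0.55 and Tal1, its partner in E-box complexes, by -0.25. Gata2, a GATA factor of earlier progenitors, changed by 1.79 and Sp1, a ubiquitous GC box factor, by 0.28. The Epor promoter is shown because both kinds of element lie close to its start. Binding of the factors above to this promoter was not tested, nor was their part in the fall of Epor. The stretch covers the 150 bases before the RefSeq start (GRCm38.p6, chr9:21963577-21963726, minus strand), read 5′ to 3′. Capitals mark matches to the GATA motif (A or T, then GATA, then A or G) and to a CACC type motif (CCNCNCCC, N being any base), each sought on both strands.
Epor promoter: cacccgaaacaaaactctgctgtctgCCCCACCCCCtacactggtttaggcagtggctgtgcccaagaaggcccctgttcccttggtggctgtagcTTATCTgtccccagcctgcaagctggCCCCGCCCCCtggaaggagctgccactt
The GATA match starts 54 bases before the start and lies on the other strand. The CACC type matches come as overlapping pairs that begin 124 and 28 bases before it. Among all 32851 RefSeq promoter windows, each from 250 bases before a start to 50 after it, 29.8% hold the GATA motif and 49.5% the CACC type motif, so matches of these short motifs are common. Epor was the only one of the 9 members with a window in the table to hold the GATA motif. All 9 held the CACC type motif, in 10 of their 12 windows. In Cish the only matches lie in a run of G, which this loose motif accepts.

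Jak2, the kinase that the receptor needs, moved the other way. Jak2 (ENSMUSG00000024789) had 126 and 137 CPM in the controls and 185 and 185 CPM in the mutants. Both mutant libraries lay above both controls. The change was 0.49 ± 0.05 (adjusted p = 3.8e-07), a 1.41-fold rise. Compared per kilobase of the longest coding transcript, the level of Epor was 11.0 and 8.96 times that of Jak2 in the control libraries and 3.96 and 3.48 times in the mutant libraries.

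Stat5a and Stat5b, adjacent genes for near-identical transcription factors, fell by similar and modest amounts. Stat5a (ENSMUSG00000004043) had 40.9 and 45.6 CPM in controls against 32.6 and 33.4 CPM in mutants, and changed by -0.39 ± 0.08 (adjusted p = 0.000562). Stat5b (ENSMUSG00000020919) had 191 and 201 CPM in controls against 156 and 157 CPM in mutants, and changed by -0.32 ± 0.05 (adjusted p = 2.11e-05). For both genes the mutant libraries lay close together and below the controls. Stat5b was the more abundant of the pair in every library, 3.49 and 3.28 times Stat5a per kilobase in controls and 3.56 and 3.51 times in mutants, and with the union of exons 6.02 and 5.67 times in controls and 6.15 and 6.07 times in mutants. The division between them is uncertain, because the counting of reads that map to both copies was not given in the sources used here. Stat5a also shares 72 exon bases with Stat3, which lies on the opposite strand, and the use of strand in counting was not stated either.

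The feedback inhibitors rose from low levels, by amounts that differed widely. Cish and the Socs proteins bind phosphorylated receptors or Janus kinases through an SH2 domain and recruit a ubiquitin ligase through their SOCS box. Socs1, which also blocks the kinase domain of Janus kinases directly, was the scarcest member in controls and changed the most. Socs1 (ENSMUSG00000038037) was counted 12 and 13 times in the controls and 321 and 150 times in the mutants. In CPM these were 0.469 and 0.596 against 12.1 and 9.54. The lowest mutant value was far above the highest control value. The change was 4.37 ± 0.23 (adjusted p = 5.95e-11), a 20.6-fold rise, and 73 of the 13140 tested genes, Socs1 included, had as large a log2 fold change or a larger one. With any library left out it ran from 4.16 to 4.52.

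Socs2, an inhibitor best known for limiting growth hormone signals, had 3.36 and 3.49 CPM in controls and 12.3 and 11.4 CPM in mutants (ENSMUSG00000020027). The groups were far apart relative to the gaps within them. The change was 1.80 ± 0.14 (adjusted p = 9.8e-09), a 3.48-fold rise. Cish, the founding gene of the family and a direct Stat5 target, had 1.60 and 1.24 CPM in controls and 3.25 and 2.67 CPM in mutants (ENSMUSG00000032578), from 27 to 86 counts per library. The groups did not overlap, and the change was 1.07 ± 0.24 (adjusted p = 0.000896), a 2.10-fold rise. Annotated genes on the opposite strand share 4.07% and 7.46% of the exon bases of Cish, and their reads cannot be told apart from those of Cish if strand was not used.

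Socs3, which restrains receptors of the interleukin 6 and granulocyte colony-stimulating factor type, rose the least and the least firmly. It had 3.56 and 3.85 CPM in controls and 5.52 and 4.39 CPM in mutants (ENSMUSG00000053113). The groups did not overlap, but the mutant libraries differed from each other by more than the lower of them differed from the higher control. The change was 0.45 ± 0.17 (adjusted p = 0.0349). The call was lost when control replicate 1 was left out (0.38, adjusted p = 0.143), when mutant replicate 1 was left out (0.25, adjusted p = 0.395), with DESeq2 (adjusted p = 0.252) and without the count filter (adjusted p = 0.0525), and over all alternatives the adjusted p ran from 0.00738 to 0.395.

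**Figure D2:**
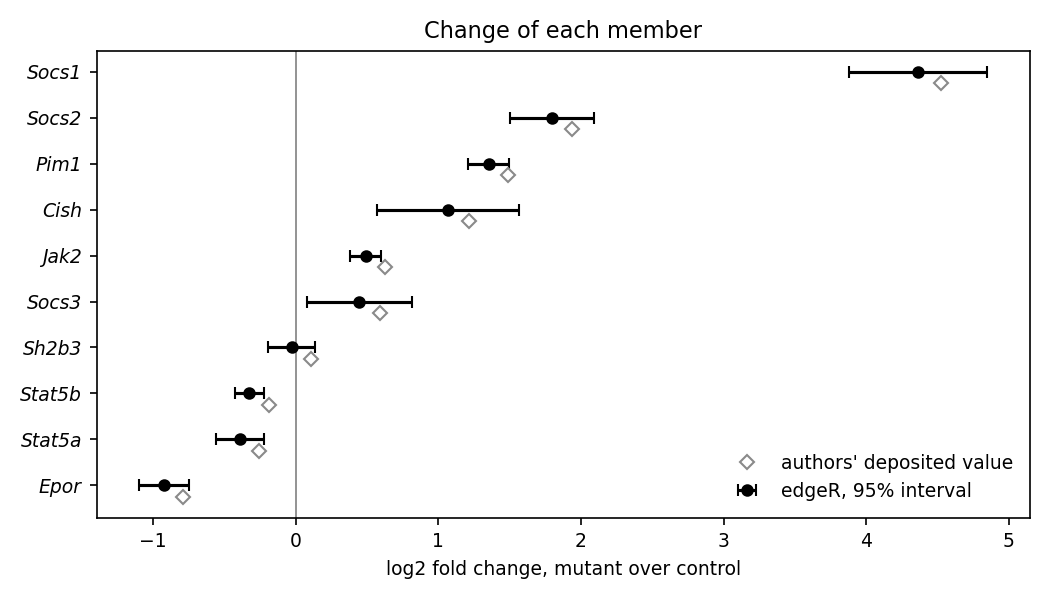
Log2 fold change of mutant over control for each member, ordered by size. Filled points are edgeR values with 95% intervals, and open diamonds are values of the authors' deposited table. Socs1 stands far to the right at 4.37, Epor furthest to the left at -0.92, and the interval of Sh2b3 spans 0.

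Because the 4 genes rose unequally, the make-up of the family changed. Their summed level per kilobase of longest coding transcript was 3.63 and 3.72 CPM per kb in the controls and 13.0 and 11.1 CPM per kb in the mutants. Socs1 made up 4.44% and 5.51% of that sum in controls and 32.0% and 29.7% in mutants. Socs3 made up 38.4% and 40.6% in controls and 16.6% and 15.5% in mutants. Cish went from 15.5% and 11.7% to 8.76% and 8.47%, while Socs2 had 41.7% and 42.2% in controls and 42.6% and 46.3% in mutants. The shares depend on the lengths used: with the union of all exons, Socs1 took 8.09% and 9.78% in controls and 52.9% and 51.2% in mutants, and Socs3 led in controls with 61.7% and 63.6%. Under both lengths the share of Socs1 was higher, and that of Socs3 lower, in each mutant library than in each control library. Epor stood at 75.8 and 65.8 times the summed level of the 4 genes per kilobase in controls and at 11.2 and 11.6 times in mutants, and with the union of exons at 122 and 103 times in controls and 16.4 and 17.7 times in mutants. These shares and ratios come from the same counts as the changes above and were not tested.

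**Figure D3:**
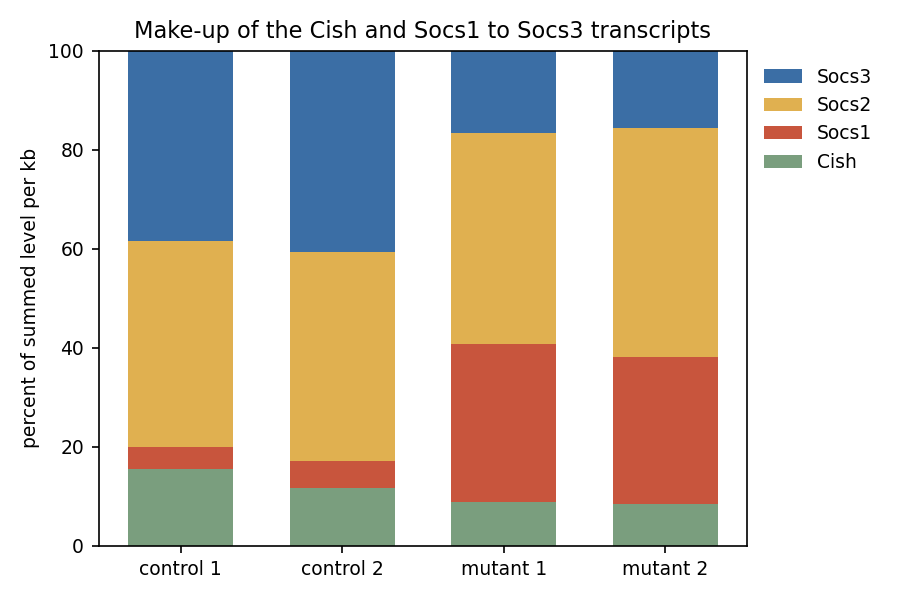
Percent of the summed level per kilobase (longest coding transcript) that Cish, Socs1, Socs2 and Socs3 each take in the 4 libraries. Bars are single libraries and each adds to 100%. The Socs1 segment widens from about 5% in controls to about 31% in mutants, and the Socs3 segment narrows from about 39% to about 16%.

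Promoter stretches of Cish, Socs3 and Socs1 are shown because the first pair hold the Stat motif and the third shows the largest change. Stat5 dimers bind palindromes of the form TTCNNNGAA, which reads the same on both strands. Capitals mark this motif in Cish and Socs3. In Socs1 they mark pairs of GAAA with 2 bases between them, the repeat that interferon regulatory factors bind, a motif that was chosen after the sequence was seen and sought on both strands. All are RefSeq sequences of GRCm38.p6 read 5′ to 3′: chr9:107296654-107296683 (plus strand, across the start) for Cish, chr11:117969447-117969546 (minus strand) for Socs3 and chr16:10785537-10785636 (minus strand, up to the start) for Socs1.
Cish start region: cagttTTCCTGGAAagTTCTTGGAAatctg
Socs3 promoter: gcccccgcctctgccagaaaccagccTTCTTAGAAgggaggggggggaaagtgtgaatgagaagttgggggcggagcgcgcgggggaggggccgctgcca
Socs1 promoter: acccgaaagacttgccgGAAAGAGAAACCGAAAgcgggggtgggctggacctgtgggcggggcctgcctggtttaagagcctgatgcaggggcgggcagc
Cish holds the Stat motif at its first transcribed base and again 11 bases further on, and Socs3 holds it from 154 bases before the start. At least 1 such motif occurs in 8.3% of all 32851 windows and at least 2 in 0.457%. The interferon type repeat of Socs1 occurs as an overlapping pair from 83 and 77 bases before its start, and 3.44% of windows hold at least 1 match. Windows were found for 9 of the 10 members, all but Socs2, with 12 windows in all, since Stat5a, Stat5b and Pim1 have more than 1. The other members' windows hold neither motif.

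Pim1, a serine-threonine kinase that promotes survival and is a classical Stat5 target, rose strongly. Pim1 (ENSMUSG00000024014) had 45.2 and 39.4 CPM in controls and 108 and 109 CPM in mutants. The mutant libraries nearly coincided and lay more than 2-fold above the controls. The change was 1.35 ± 0.07 (adjusted p = 3.64e-11), a 2.56-fold rise. The level of Pim1 per kilobase was 0.355 and 0.291 times the summed level of Stat5a and Stat5b in controls and 1.04 and 1.04 times in mutants. An annotated antisense gene shares 14.5% of the exon bases of Pim1.

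Sh2b3, which encodes the adaptor Lnk that binds Jak2 and restrains Epo and thrombopoietin signals, showed no detectable change. Sh2b3 (ENSMUSG00000042594) had 41.3 and 39.4 CPM in controls and 40.8 and 38.2 CPM in mutants. The groups overlapped. The change was -0.03 ± 0.08 (adjusted p = 0.779), with a 95% interval from -0.19 to 0.14, so a change of the size seen in the receptor gene lies outside it. Its sign turned with the scaling, to 0.0482 with upper quartile scaling and 0.11 with library totals alone. Atxn2, on the opposite strand, shares 2.06% of the exon bases of Sh2b3, and the use of strand in counting was not stated.

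Most granulocyte, monocyte, megakaryocyte and hepatoblast markers were higher in the same libraries as Socs1, Socs2, Cish and Pim1, with the summed levels given above. Elane and Vwf, from the blood lineage lists, were lower. Cells of those blood lineages express several of these genes too. The part of such cells, or of hepatoblasts, in the rises was not tested.

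Ordered by level per kilobase, the members kept Epor at the top in both groups, with 260 ± 21.7 CPM per kb in controls and 137 ± 12.6 CPM per kb in mutants. In controls Stat5b, Jak2, Pim1, Stat5a and Sh2b3 followed, then Socs2, Socs3, Cish and Socs1. In mutants Pim1 came next to Epor, followed by Jak2, Stat5b, Sh2b3 and Stat5a, then Socs2, Socs1, Socs3 and Cish. No neighbours in either order overlapped over their 2 libraries, but Socs2 and Socs3 in controls nearly touched, at 1.51 CPM per kb for the lowest Socs2 library and 1.51 CPM per kb for the highest Socs3 library. The order depends on the lengths used. With the union of exons, Socs3 ranked above Socs2 and Sh2b3 above Stat5a in controls, while in mutants Jak2 ranked above Pim1 and Socs1 came first of the 4 inhibitors, ahead of Socs3, Socs2 and Cish.

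The authors' deposited table gives the same direction for the 9 members that passed, with adjusted p-values of at most 0.0302. Its log2 fold changes were -0.79 for Epor, 0.63 for Jak2, -0.25 for Stat5a, -0.19 for Stat5b, 1.21 for Cish, 4.53 for Socs1, 1.94 for Socs2, 0.59 for Socs3 and 1.49 for Pim1. For Sh2b3 the authors' deposited table gives 0.11, with an adjusted p of 0.375. Each of its 10 values lies above the value given here, by 0.135 to 0.160, and within 0.0233 of the value obtained with library totals alone.

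**Figure D4:**
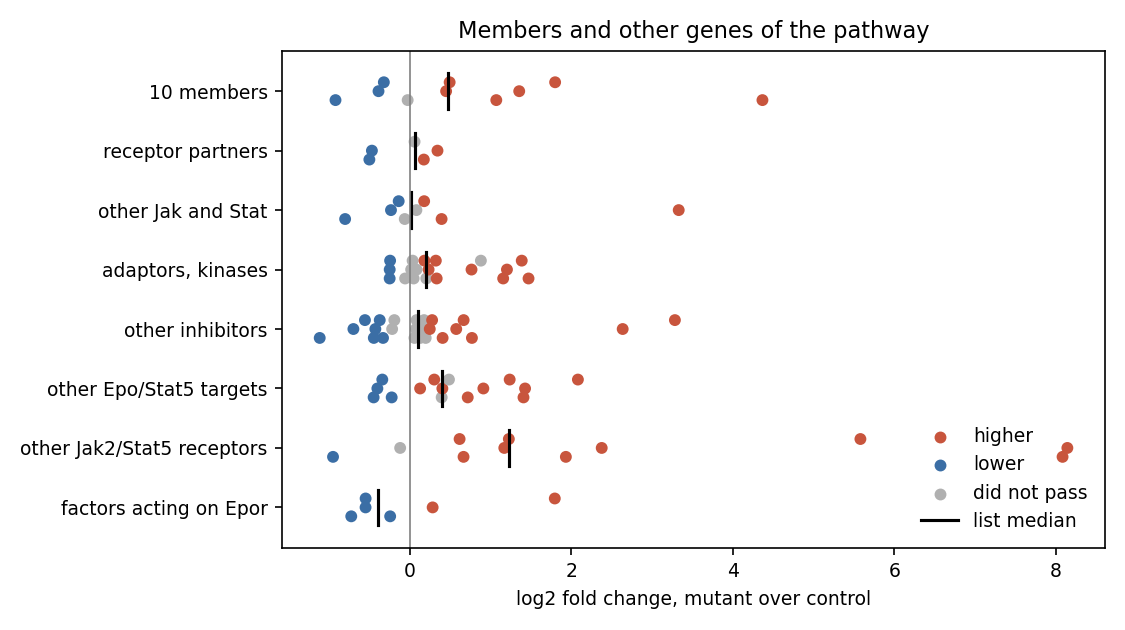
Log2 fold change of mutant over control for the members and for lists of other pathway genes. Each point is a tested gene, red where higher, blue where lower and grey where it did not pass, and the black line is the list median. The points of the receptors that also use Jak2 or Stat5 reach furthest to the right (median 1.23). Among them Csf2rb2, Il5ra and Csf3r passed the filter only through the mutant libraries, so nothing is read from that median. Of the 6 factors that act on Epor, 4 lie to the left and 2, Gata2 and Sp1, to the right (median -0.40).

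Other genes of the pathway were grouped by role, and their changes are read beside the 28.3% and 29.2% of all tested genes that rose and fell. Of 7 genes whose products work with the receptor at the cell surface or in its traffic, 6 were in the table, Tfr2 was not found by symbol, and 5 were tested. Usp8 (0.34) and its substrate, the ubiquitin ligase gene Rnf41 (0.17), rose, and 2 genes fell, among them Tfrc (-0.50), which encodes the sorting marker CD71. Kit, the stem cell factor receptor that acts together with Epor, had 186 ± 2.99 CPM in controls and 194 ± 5.24 CPM in mutants and did not pass (0.06), but it passed with upper quartile scaling (0.13, adjusted p = 0.0226) and with library totals alone (0.19, adjusted p = 0.00162). Tfrc lost its call when either mutant library was left out (adjusted p = 0.0702 for replicate 1 and 0.0677 for replicate 2), and Rnf41 in 9 of 14 alternatives. Epo itself, with 2 and 0 counts in controls against 5 and 1 in mutants, was too scarce to test.

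Of the 8 other Janus kinase and Stat genes, 3 rose and 3 fell (median 0.01). Stat4, a factor of lymphoid and myeloid cells, went from 3 and 2 counts to 31 and 16 counts (3.33), and Stat3 changed by 0.39. Stat4 lay below the filter limit in both controls, so it was tested only through the mutant libraries and had to differ. Jak3, the kinase of the common gamma chain receptors, went from 30.2 ± 2.40 to 17.2 ± 1.07 CPM (-0.80), Tyk2 changed by -0.23 and Stat6 by -0.14. Jak1 (-0.06) and Stat2 (0.08) did not pass. With library totals alone 4 rose and 1 fell, with Stat2 among those that rose (adjusted p = 0.0445), and the calls of Stat6 and Tyk2 were lost in 7 and 3 of 14 alternatives.

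Of 20 adaptor and kinase genes that couple the receptor to Ras, PI3 kinase and phospholipase C, 19 were tested, 9 rose and 3 fell (median 0.20). Vav1, an exchange factor of blood cells, went from 41.9 ± 0.346 to 116 ± 0.960 CPM (1.47), Plcg2, a phospholipase C isoform of blood cells, from 10.6 ± 1.23 to 27.8 ± 1.04 CPM (1.38) and Pik3cd, the leukocyte PI3 kinase catalytic subunit, from 50.7 ± 1.61 to 117 ± 3.68 CPM (1.20). The falls were small: Ptpn11 (-0.25), Gab1 (-0.25) and Akt1 (-0.25). With library totals alone 13 rose and 2 fell, and Gab1 was lost (adjusted p = 0.0738). Most granulocyte, monocyte and megakaryocyte markers were higher in the same libraries, and the part of such cells in these rises was not tested.

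Of 24 further regulators of cytokine signals, most of them inhibitors, 8 rose and 7 fell (median 0.10), shares close to those of all tested genes. Ptprc, the leukocyte phosphatase CD45, went from 0.598 ± 0.127 to 5.76 ± 0.406 CPM (3.28), the adaptor gene Dok2 from 3.37 ± 0.547 to 20.9 ± 2.42 CPM (2.63) and the Ras pathway inhibitor gene Spry2 from 1.44 ± 0.0422 to 2.53 ± 0.645 CPM (0.77). Sh2b2, the paralog of Sh2b3, fell from 3.03 ± 0.251 to 1.35 ± 0.286 CPM (-1.12), Btrc, the ubiquitin ligase subunit that marks the receptor for degradation, from 102 ± 0.0578 to 63.1 ± 0.0599 CPM (-0.70) and the SUMO ligase gene Pias4 changed by -0.56. With library totals alone 13 rose and 7 fell, and with upper quartile scaling 12 and 7. Spry2 lost its call with DESeq2 (adjusted p = 0.131) and when control replicate 1 (adjusted p = 0.0666) or mutant replicate 2 (adjusted p = 0.130) was left out.

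Of 16 further genes known to be induced by Epo or Stat5 in blood cells, 15 were tested, 9 rose and 4 fell (median 0.40). Trib3, a pseudokinase gene, went from 16.3 ± 0.336 to 68.7 ± 3.57 CPM (2.08), Id1, an inhibitor of E proteins, from 18.2 ± 1.26 to 48.3 ± 1.86 CPM (1.41), and the repressor gene Gfi1b changed by 1.43. Ccnd3, the D-type cyclin of erythroid division, changed by -0.45, the erythroferrone gene Fam132b by -0.40, Pim3 by -0.34 and the survival gene Mcl1 by -0.23. Mcl1 lost its call with library totals alone (-0.0892, adjusted p = 0.130), where 11 of the list rose and 3 fell. Pim2 (0.39) and Osm (0.48) did not pass, and both passed with upper quartile scaling and with library totals alone. The 3 Pim kinase genes thus stood apart, with Pim1 higher, Pim3 lower and Pim2 short of the threshold, and their difference was not tested.

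Of 15 receptor chains that signal through Jak2 or Stat5 in other settings, 11 were tested, 9 rose and 1 fell (median 1.23). The beta chains of the interleukin 3 receptor family, Csf2rb (1.56 ± 1.17 to 460 ± 9.05 CPM, 8.14) and Csf2rb2 (0.300 ± 0.295 to 87.1 ± 2.49 CPM, 8.08), are near-identical copies whose reads may be shared, and Il5ra went from 2 and 0 counts to 74 and 24 counts. Ifngr1, a chain of the interferon gamma receptor, fell (-0.95), and Csf2ra did not pass (-0.12). In the mutants Csf2rb stood at 460 CPM and Epor at 241 CPM. These values are not divided by transcript length, so the genes cannot be ranked by them. With 1 library left out the log2 fold change ran from 7.57 to 9.27 for Csf2rb, with both ends set by the control left out, from 7.39 to 9.80 for Csf2rb2, likewise, and from 4.75 to 8.60 for Il5ra. Csf2rb2, Il5ra and Csf3r, 3 of the 9 that rose, passed the filter only through the mutant libraries and so had to differ, and nothing is read from the count of rises or the median.

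**Figure D5:**
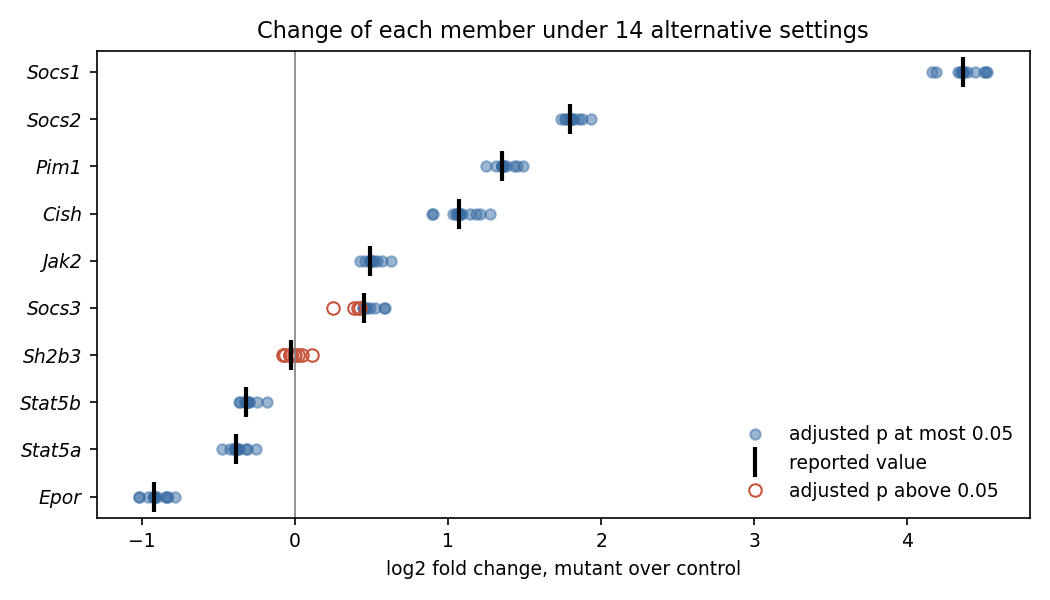
Log2 fold change of each member under 14 alternative settings. Filled points passed the threshold, open points did not, and the black bar is the reported value. The points of 8 members stay on 1 side of 0 and past the threshold, those of Socs3 run from 0.25 to 0.59 with 4 open points, and those of Sh2b3 lie on both sides of 0.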

How the data were processed

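Counts per gene were analysed in 2 control and 2 mutant libraries, grouped by their titles. The authors deposited whole-number counts, taken to be raw because library totals differ, and a table of log2 fold changes and p-values of their own comparison. The submitters' processing notes name the tools FastQC, Bowtie, edgeR and the build mm9; versions, read counting and strand handling are not given in the sources used here. Columns named WT were assigned to control samples by number, as the only other group, which no label states outright. Of 35939 rows, 12 held NA in every library and were left out.

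The model was fitted in R 4.3.3 by edgeR 4.0.16 (filterByExpr, TMM, estimateDisp, robust glmQLFit, glmQLFTest, two-sided). Each SE was taken as |log2 fold change| divided by the root of its F value. A common dispersion of 0.00232 corresponds to a coefficient of variation of 4.81% between libraries of a group, beyond counting noise, over all genes. Single genes can spread more, and with so low a dispersion small changes pass. The fit was also run on simulated counts that shared a single dispersion and held few changed genes. That run does not check the calls made here. Lengths are of the longest protein-coding transcript in GENCODE M21, a GRCm38 annotation, matched by Ensembl ID, while promoter sequences come from RefSeq's GRCm38.p6 by symbol, and neither is the authors' build.

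Alternatives were other scalings, filters and tests (DESeq2 1.42.0, limma-voom with limma 3.58.1, edgeR's exact test), a replicate block, and fits that leave out each library in turn, where the lone library of a group is taken to vary as the other group does. Named genes were Rcor1, the members, up to 3 risers and 3 fallers of each pathway list with non-overlapping groups and at least 1 CPM, and every gene of a list's risen, fallen or not passing genes where these number 5 or fewer. Some are not reported here. The members and lists were chosen with earlier results of these data known.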

Additional observations from a re-analysis of the deposited data

How the results depend on the processing

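Of the 140 values of the members under alternatives, 133 kept their direction and their side of the threshold. Socs3 lost its call without the count filter (0.41) and with DESeq2 (0.43), and ran from 0.25 to 0.58 with a library left out, and the cause was not tested. Sh2b3, which never passed, had 0.0482 with upper quartile scaling, 0.11 with library totals alone, and -0.0765 to 0.0205 with a library left out. Among the other 46 named genes 598 of 644 values kept direction and call. Jak1 turned to 0.0122 with upper quartile scaling and 0.0724 with library totals alone, and Csf2ra to 0.0166 with library totals alone and ran from -0.36 to 0.0407 with a library left out. None of these reversals passed. Over all genes 3723 were higher and 3835 lower, against 5112 and 2553 with library totals alone, which moved the median over all genes from 0.01 to 0.15, and 4423 and 3088 with upper quartile scaling. With the replicate number as a block 6 members rose and 3 fell, as without it, and 4135 genes were higher and 4267 lower. The labels state no pairing. Across 8827 genes the difference between the control replicates, taken in number order, correlated with that between the mutant replicates at r = 0.31. Genes are not independent replicates. Counts were lowest for Cish, Socs1, Socs2 and Socs3, whose control libraries held between 12 and 91 counts each, which limits the precision of their changes.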

Other observations

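A few regulators that bind the receptor complex directly were looked at after their values were seen, outside the rule for named genes. Lyn, a Src family kinase that associates with the Epo receptor, went from 35.0 ± 2.26 to 59.3 ± 0.468 CPM (0.76, adjusted p = 1.78e-07 in edgeR's quasi-likelihood test), and Gab2, a docking protein phosphorylated after Epo, from 71.5 ± 1.35 to 159 ± 2.88 CPM (1.15, adjusted p = 8.45e-12). Ptpn6, the phosphatase that binds the receptor tail and inactivates Jak2, went from 74.1 ± 0.567 to 118 ± 0.175 CPM (0.67, adjusted p = 1.5e-08), and Inpp5d, an inositol phosphatase, from 125 ± 4.94 to 148 ± 1.19 CPM (0.25). Other regulators of the complex were lower: Ptpn1, a phosphatase of Jak2, went from 147 ± 3.53 to 109 ± 1.46 CPM (-0.43, adjusted p = 1.5e-06), the Jak2-binding adaptor gene Sh2b1 changed by -0.37 and the docking protein gene Dok1 by -0.33. The remaining Socs genes were divided: Socs5 rose (0.57) and Socs7 fell (-0.45), while Socs4 (0.17) and Socs6 (0.20) did not pass. Among the other Epo or Stat5 targets, the transcription factor gene Irf1 went from 27 and 15 counts to 54 and 34 counts (1.24, adjusted p = 0.00131).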
